A study of Mus musculus with 16 samples.

Results

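Adipoq, Fabp4, Car3 and Gpd1 are genes that fat cells express strongly, and they were read here as a gauge of fat tissue in muscle samples, apart from the genes of lipid synthesis. All probe sets whose only gene symbol in the platform annotation was one of these were taken, which gave 7 probe sets of 4 genes, out of 4929 genes named in the table. Adipoq had a single probe set, and the other 3 genes had 2 each. All 7 were bright enough to be tested, so every member is described.

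Muscle was taken at 7 weeks of age from female C57BL/6 mice, a stage called presymptomatic in the series title. The SOD1-G93A mice were transgenic for human SOD1 carrying the G93A substitution, a model of amyotrophic lateral sclerosis, and the NTg mice were non-transgenic. Gastrocnemius, from the calf, and triceps, from the upper forelimb, came from 4 mice of each genotype, so 16 arrays form 4 groups of 4 and every mouse gave both muscles. The sources used here do not state the promoter of the transgene, no agent was given, and whole muscle was frozen without sorting of cells. Values are signals on the log2 scale, on which a difference of 1 is a doubling, and levels of different probe sets cannot be compared with each other.

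Adipocytes store triglyceride and release hormones, and in muscle they lie between the fibres and around the fascicles. Adipoq encodes adiponectin, a hormone made almost solely by fat cells. Fabp4 encodes a fatty acid carrier of fat cells that capillary endothelium and macrophages also make. Car3 encodes carbonic anhydrase 3, abundant in fat cells and in muscle fibres alike, and Gpd1 encodes cytosolic glycerol-3-phosphate dehydrogenase, which supplies the glycerol backbone of triglycerides in fat and takes part in glycolytic metabolism in muscle fibres.

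Array medians ran from 7.10 to 7.26 over the 7729 probe sets. A group of 3 triceps arrays, known from earlier results of these data, stood apart. The signal of Ckm, the muscle creatine kinase gene, was 12.84 and 13.02 in NTg triceps replicates 1 and 2 and at 12.76 in SOD1-G93A triceps replicate 2, and at 13.84 or more in the other 13 arrays. Slow fibre genes were higher in gastrocnemius, with 12 of 12 called and a median log2 difference of 4.41.

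No member differed between the genotypes in a way that passed the test, in either muscle or over both. Adipoq had the largest average difference of the 4 genes by the probe set with the higher mean signal, 1.35-fold higher in SOD1-G93A mice, and this came mostly from the mice numbered 1 and 2. Fabp4 was nearly level between the genotypes. By the same choice of probe sets, Car3 was at 0.25 and Gpd1 at 0.17 over both muscles, and Car3 was at 0.043 under quantile normalization. By their second probe sets Car3 was at 0.45 and Gpd1 at 0.32 over both muscles, where Adipoq was at 0.43, so the ranking depends on the probe set. By its probe set with the higher mean signal, Car3 varied from array to array together with genes of the fast fibre. Its second probe set was most like Igfbp7 (r = 0.980). The part of the scale of the arrays in these likenesses was not tested. In bulk muscle, fewer cells of a type and less RNA per cell cannot be told apart.

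**Figure D1:**
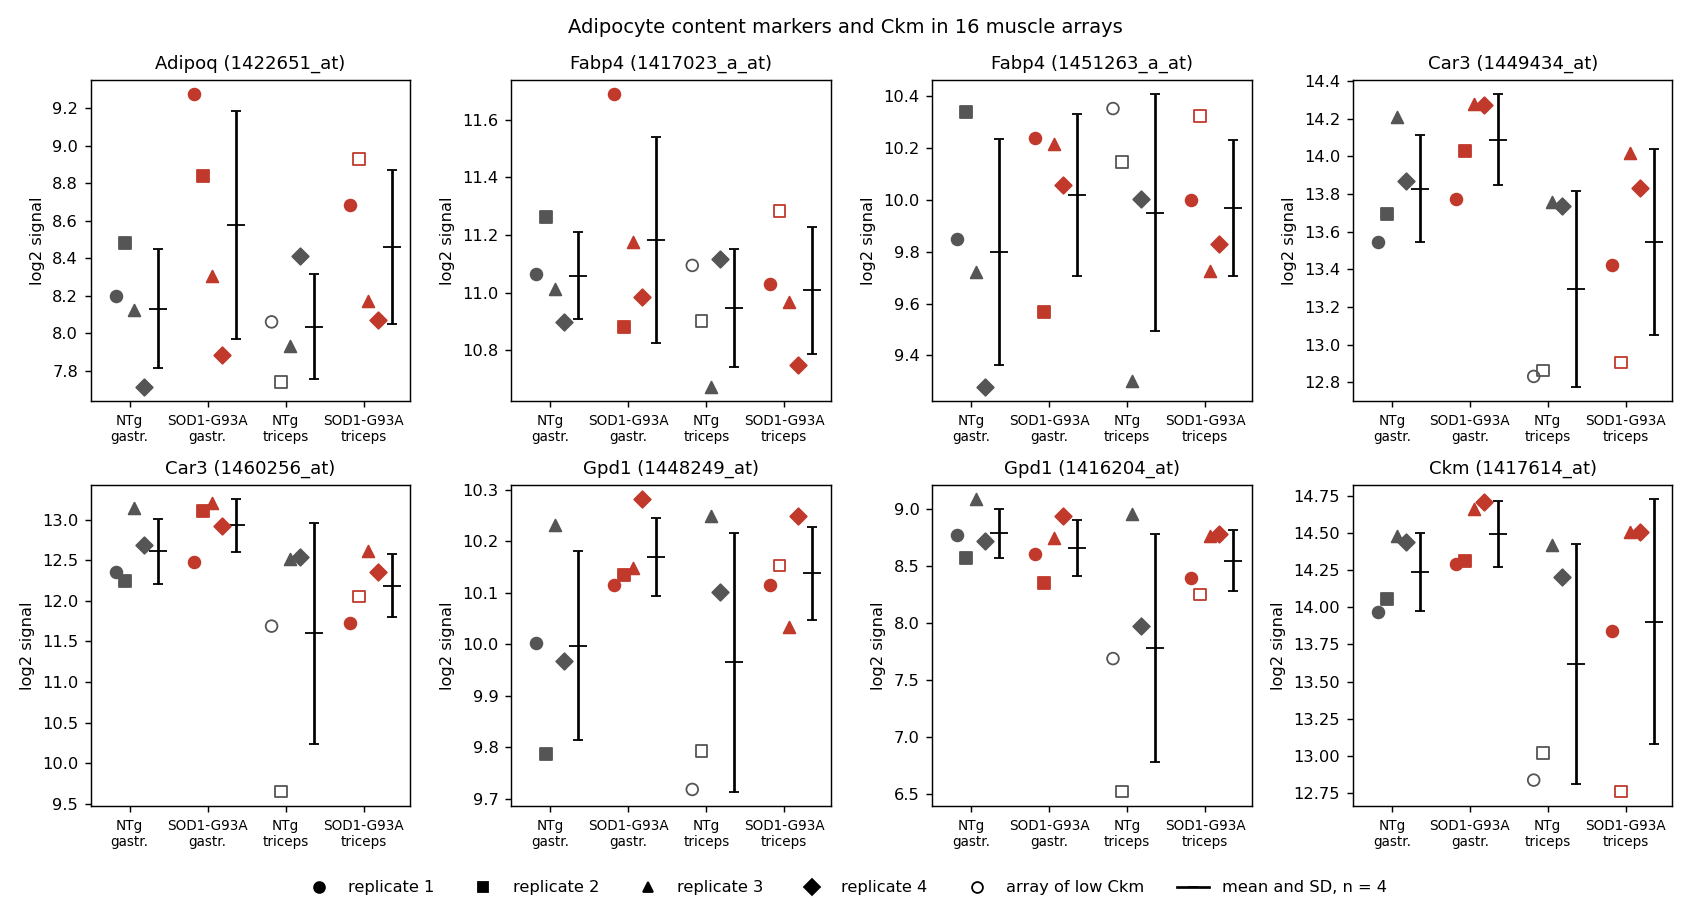
Log2 signal (vertical axes) of the 7 probe sets and of Ckm in each of the 16 arrays, in grey for NTg and red for SOD1-G93A, with 1 marker shape for each replicate number, and the mean and SD of 4 arrays beside each group. Open markers are the 3 triceps arrays of low Ckm. The genotype groups overlap in every panel, and Car3 (1449434_at) and Ckm are low in the same 3 arrays.

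Adipoq (probe set 1422651_at) was at 8.20, 8.48, 8.12 and 7.72 in NTg gastrocnemius, replicates 1 to 4. In SOD1-G93A gastrocnemius it was at 9.27, 8.84, 8.31 and 7.88. The SOD1-G93A arrays of replicates 1 and 2 lay above every NTg array, and replicates 3 and 4 lay within the NTg range. The log2 difference was 0.44 (SE 0.27, 95% interval -0.12 to 1.01), and limma's adjusted p was 0.999. It was 0.21 without SOD1-G93A gastrocnemius replicate 1 and 0.67 without replicate 4. Of all 4637 probe sets tested in this comparison, 0% were called and 2.22% (103) had an unadjusted p under 0.05, and no member was among either. Nor did any member have 4 SOD1-G93A arrays that did not overlap the 4 NTg arrays, as 2.7% of probe sets did in gastrocnemius in either direction and 0.949% in triceps.

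In triceps, the NTg arrays of Adipoq were at 8.06, 7.74, 7.93 and 8.41. The SOD1-G93A arrays were at 8.68, 8.93, 8.17 and 8.07. Again replicates 1 and 2 of SOD1-G93A lay above every NTg array, while replicates 3 and 4 lay inside the NTg range. The difference was 0.43 (SE 0.27, 95% interval -0.14 to 0.99; limma's adjusted p = 0.994), against 0% called and 2.54% (118) with an unadjusted p under 0.05 over all probe sets. Without the 3 triceps arrays of low Ckm it was 0.14, and without SOD1-G93A triceps replicate 2 alone, which is one of them, it was 0.27.

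Over both muscles Adipoq was higher in SOD1-G93A by 0.43 (SE 0.20), a fold of 1.35 with a 95% interval of 1.01 to 1.82. Its unadjusted p was 0.0461 and limma's adjusted p was 0.997, so it did not pass. It was the only member with an unadjusted p under 0.05 here, a level reached by 85 probe sets (1.83%), of which 37 (0.798%) were higher, and 0% were called. Its genotype difference in gastrocnemius exceeded that in triceps by 0.02 (SE 0.38), a contrast with 0% of probe sets called and 1.85% at an unadjusted p under 0.05.

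The 4 group means of Adipoq, from high to low, were 8.58 ± 0.61 (SD, n = 4) in SOD1-G93A gastrocnemius, 8.46 ± 0.41 in SOD1-G93A triceps, 8.13 ± 0.32 in NTg gastrocnemius and 8.04 ± 0.28 in NTg triceps. No neighbours in this order differed by more than the larger of their SDs. Gastrocnemius exceeded triceps by 0.10 (SE 0.19; limma's adjusted p = 0.773), and was the higher muscle in 5 of 8 mice.

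Averaged over its 2 muscles, Adipoq was at 8.13, 8.11, 8.03 and 8.06 in NTg mice 1 to 4. It was at 8.98, 8.88, 8.24 and 7.98 in SOD1-G93A mice 1 to 4. Of the SOD1-G93A mice, 3 of 4 lay above the highest NTg mouse and the fourth lay below the lowest, so the groups overlapped. No member had mouse means that separated the genotypes, as did 1.12% of all probe sets in either direction. The exact permutation test of the 8 mouse means gave p = 0.171 (two-sided; 4 against 4 mice cannot go below 0.0286). The close NTg means partly average out opposed muscles, since gastrocnemius minus triceps was 0.74 in NTg mouse 2 and -0.69 in NTg mouse 4.

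Between mice numbered 1 and 2, the genotype difference of Adipoq was 0.71 in gastrocnemius, 0.90 in triceps and 0.81 over both. Between mice numbered 3 and 4, it was 0.17 in gastrocnemius, -0.05 in triceps and 0.06 over both. The excess was thus largest in mice 1 and 2, in both muscles, and between mice 3 and 4 it was smaller in gastrocnemius and near 0 in triceps. The labels do not say whether the numbers mark litters, days or anything else shared across genotypes.

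Fabp4 was read by 2 probe sets. The one with the higher mean signal (1417023_a_at) was at 11.07, 11.26, 11.01 and 10.90 in NTg gastrocnemius. In SOD1-G93A gastrocnemius it was at 11.69, 10.88, 11.18 and 10.98. Only SOD1-G93A replicate 1 stood above the NTg range, and replicate 2, where Adipoq was high, had the lowest Fabp4 of both groups.

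In triceps this probe set was at 11.09, 10.90, 10.67 and 11.12 in NTg and at 11.03, 11.28, 10.97 and 10.75 in SOD1-G93A. Only SOD1-G93A replicate 2 exceeded the NTg arrays. Its genotype difference was 0.12 (SE 0.17) in gastrocnemius, 0.06 (SE 0.17) in triceps and 0.09 (SE 0.13) over both. The 95% interval over both muscles ran from 0.882-fold to 1.29-fold, and limma's adjusted p was 0.994 or more in each.

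The second Fabp4 probe set (1451263_a_at) ranged from 9.28 to 10.34 in NTg and from 9.57 to 10.24 in SOD1-G93A gastrocnemius. In triceps it ranged from 9.30 to 10.35 in NTg and from 9.73 to 10.32 in SOD1-G93A. The SOD1-G93A arrays lay within the NTg range in both muscles. Its differences were 0.22 (SE 0.23), 0.02 (SE 0.23) and 0.12 (SE 0.18) in gastrocnemius, triceps and both, none of them called by limma. The exact permutation test on mouse means gave p = 0.4 for the first probe set and 0.429 for the second (two-sided, n = 4 mice a genotype).

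Fabp4 showed no order between the muscles. Gastrocnemius minus triceps was 0.14 (SE 0.12) for the first probe set and -0.05 (SE 0.17) for the second, and gastrocnemius was the higher muscle in 5 of 8 mice by each. By the first probe set the group means were 11.18 ± 0.36 in SOD1-G93A gastrocnemius, 11.06 ± 0.15 in NTg gastrocnemius, 11.01 ± 0.22 in SOD1-G93A triceps and 10.95 ± 0.21 in NTg triceps (SD, n = 4). Neighbours in this order differed by less than the larger of their SDs.

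**Figure D2:**
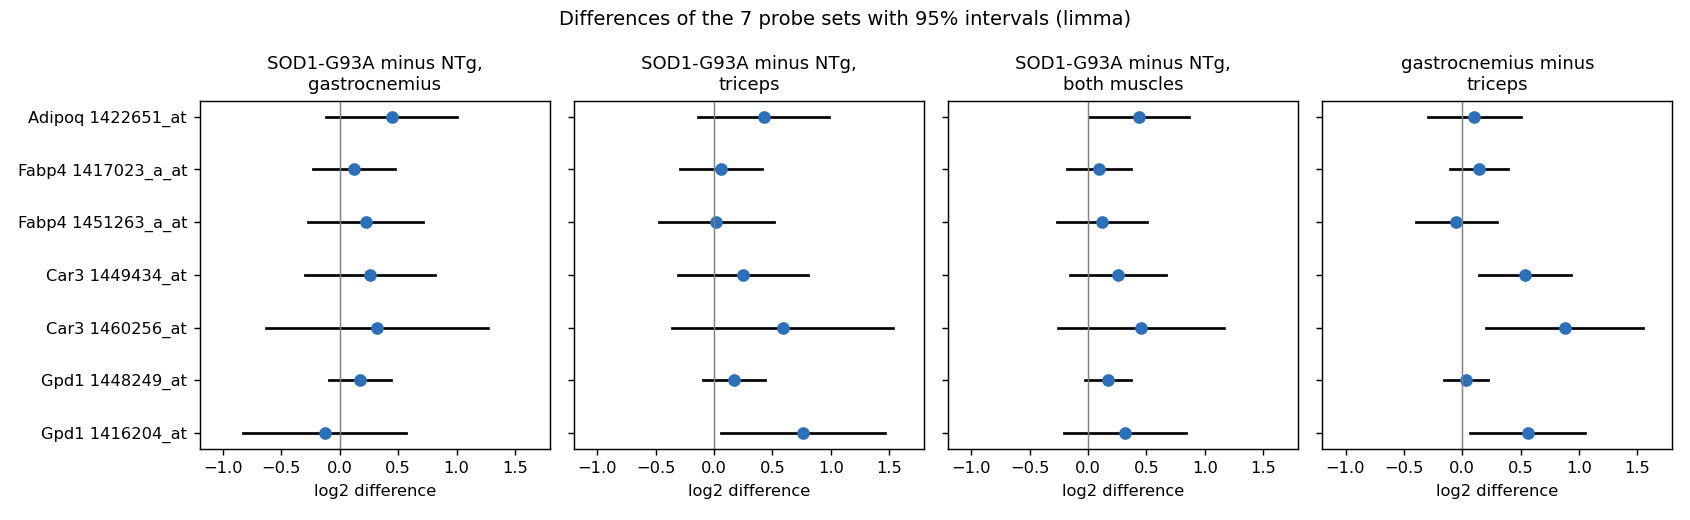
Log2 difference (horizontal axes) of each of the 7 probe sets in 4 comparisons, as points with 95% intervals from limma. In the 3 genotype panels nearly all intervals include 0, with Adipoq over both muscles and Gpd1 (1416204_at) in triceps just above it before adjustment, and in the muscle panel the intervals of both Car3 probe sets and of Gpd1 (1416204_at) lie above 0.

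Car3 varied by muscle and by array. Its probe set with the higher mean signal (1449434_at) was at 13.55, 13.69, 14.21 and 13.87 in NTg gastrocnemius and at 13.77, 14.03, 14.28 and 14.28 in SOD1-G93A gastrocnemius. In triceps it was at 12.83, 12.86, 13.76 and 13.74 in NTg and at 13.42, 12.91, 14.02 and 13.83 in SOD1-G93A. The genotypes overlapped in both muscles. The 3 lowest values of all 16 were those of the 3 triceps arrays of low Ckm.

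The genotype difference of this probe set was 0.26 (SE 0.26) in gastrocnemius, 0.25 (SE 0.26) in triceps and 0.25 (SE 0.20, 95% interval -0.16 to 0.67) over both. Under quantile normalization these were 0.068, 0.018 and 0.043. None passed the test (limma's adjusted p of 0.994 or more). The difference in gastrocnemius minus that in triceps was 0.01 (SE 0.37).

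The second Car3 probe set (1460256_at) was at 12.36, 12.25, 13.15 and 12.69 in NTg gastrocnemius and at 12.48, 13.11, 13.20 and 12.93 in SOD1-G93A gastrocnemius. In triceps it was at 11.69, 9.65, 12.52 and 12.54 in NTg and at 11.72, 12.06, 12.61 and 12.36 in SOD1-G93A. NTg triceps replicate 2, at 9.65, was far below every other array. The genotype difference in triceps was 0.59 (SE 0.45) with that array, -0.06 without it and -0.30 without all 3 triceps arrays of low Ckm, and limma called none of these. In gastrocnemius the difference was 0.32 (SE 0.45). Over both muscles it was 0.45 (SE 0.34), and 0.14 without NTg triceps replicate 2, again with no call.

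In the muscle comparison Car3 was higher in gastrocnemius by 0.54 (SE 0.19, 95% interval 0.14 to 0.93) by the first probe set, 1.45-fold, and by 0.88 (SE 0.32, 95% interval 0.21 to 1.55) by the second, 1.84-fold. limma's adjusted p was 0.114 and 0.130, so neither passed, while 3.69% of all probe sets (171 of 4637) were called 22.3% had an unadjusted p under 0.05, and 11.4% did so with the higher value in gastrocnemius. The order held within every mouse, with gastrocnemius above triceps in 8 of 8 mice by both probe sets, as for 5.93% of all probe sets. The differences within a mouse ran from 0.13 to 1.12 by the first and from 0.15 to 2.60 by the second.

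With the mouse as a fixed term, which compares the muscles within each mouse, both Car3 probe sets were called (limma's adjusted p = 0.0250 and 0.0271). With the mouse as a random block they were not (0.0515 and 0.0608). Quantile normalization, which forces the arrays to 1 distribution, left 0.02 of the first probe set's difference (limma's adjusted p = 0.915), with gastrocnemius higher in 5 of 8 mice, and 0.61 of the second's (0.258), still in 8 of 8 mice. Without the 3 triceps arrays of low Ckm the differences were 0.21 and 0.39 and were not called.

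The group means of Car3 by the first probe set fell in the order SOD1-G93A gastrocnemius (14.09 ± 0.24, SD, n = 4), NTg gastrocnemius (13.83 ± 0.28), SOD1-G93A triceps (13.55 ± 0.49) and NTg triceps (13.30 ± 0.52). Neighbours differed by less than the larger of their SDs. In each of the 4 groups, both arrays numbered 1 and 2 lay below both numbered 3 and 4 by this probe set, as they did for Ckm. Such a pattern in all 4 groups was found for 123 of the 4637 probe sets (2.65%), and in no group for Adipoq or Fabp4. The reverse order, with both arrays numbered 1 and 2 above both numbered 3 and 4, held for Adipoq in every group but NTg triceps. By each Fabp4 probe set it held in some groups and not in others. How many of all probe sets had the reverse order was not counted.

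**Figure D3:**
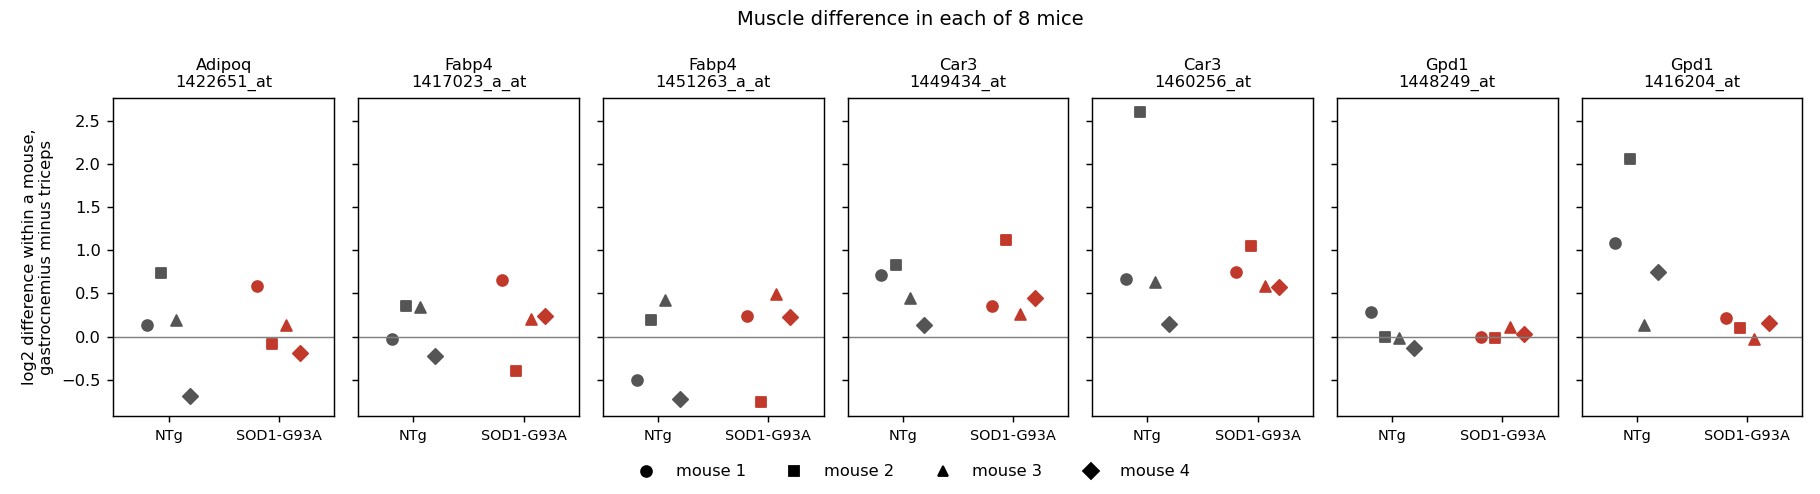
Log2 difference within a mouse, gastrocnemius minus triceps (vertical axis), for the 7 probe sets in 4 NTg (grey) and 4 SOD1-G93A (red) mice, with 1 marker shape for each mouse number. Both Car3 probe sets lie above 0 in 8 of 8 mice, and NTg mouse 2 is the highest for Car3 (1460256_at, 2.60) and Gpd1 (1416204_at, 2.05), while Adipoq and Fabp4 lie on both sides of 0.

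The probe sets of Gpd1 disagreed in spread and in sign. By the probe set with the higher mean signal (1448249_at) it was at 10.00, 9.79, 10.23 and 9.97 in NTg gastrocnemius and at 10.12, 10.13, 10.15 and 10.28 in SOD1-G93A gastrocnemius. In triceps it was at 9.72, 9.79, 10.25 and 10.10 in NTg and at 10.12, 10.15, 10.03 and 10.25 in SOD1-G93A. The SOD1-G93A arrays clustered near the top of the wider NTg range in both muscles and overlapped it.

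The genotype difference of this probe set was 0.17 in each muscle (SE 0.13) and 0.17 over both (SE 0.09, 95% interval -0.03 to 0.37), 1.13-fold. limma's adjusted p was 0.994 or more in each. Between mice numbered 1 and 2 the difference over both muscles was 0.30, and between mice numbered 3 and 4 it was 0.04. Gastrocnemius and triceps differed by 0.03 (SE 0.09).

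The second Gpd1 probe set (1416204_at) was at 8.77, 8.57, 9.08 and 8.72 in NTg gastrocnemius and at 8.60, 8.35, 8.74 and 8.94 in SOD1-G93A gastrocnemius. In triceps it was at 7.68, 6.52, 8.95 and 7.97 in NTg and at 8.39, 8.25, 8.76 and 8.77 in SOD1-G93A. NTg triceps replicate 2 was again the lowest array, as for the second Car3 probe set, and the genotypes overlapped in both muscles.

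By this probe set the genotype difference was -0.13 (SE 0.33) in gastrocnemius and 0.76 (SE 0.33) in triceps, opposite in sign in gastrocnemius to that of the first probe set. Over both muscles it was 0.32 (SE 0.25). The triceps value had an unadjusted p of 0.0345 and limma's adjusted p of 0.994. It was 0.18 without the 3 triceps arrays of low Ckm. With single NTg triceps arrays left out it ran from 0.34 (without replicate 2) to 1.15 (without replicate 3). The difference between the muscles' effects was -0.89 (SE 0.47), and limma did not call it (adjusted p = 0.999). Gastrocnemius exceeded triceps by 0.56 (SE 0.24; limma's adjusted p = 0.177), and was the higher muscle in 7 of 8 mice, where 14.3% of all probe sets were higher in at least 7. This was called only without NTg triceps replicate 3, at 0.75 (limma's adjusted p = 0.0255), and it was 0.17 without the 3 arrays of low Ckm.

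For genes with 2 probe sets, the probe sets followed each other across the 16 arrays with Pearson's r of 0.683 for Fabp4, 0.812 for Car3 and 0.636 for Gpd1. Those of Gpd1 followed each other less in gastrocnemius (0.462 over 8 arrays) than in triceps (0.788). These coefficients are descriptions, and both muscles of each mouse are among the points.

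Across the 16 arrays Adipoq followed Fabp4 by the probe set 1417023_a_at (r = 0.714, and 0.704 without the 3 triceps arrays of low Ckm), higher than 99.8% of the r values between Adipoq and the other named probe sets tested. By the second Fabp4 probe set (1451263_a_at) r was lower, at 0.388 over 16 arrays and 0.514 over the 13. Car3 (1449434_at) and Gpd1 (1448249_at) had r = 0.606 over 16 arrays, and 0.425 without the 3 triceps arrays of low Ckm. Adipoq had an r of -0.06 with that Car3 probe set and 0.161 with that of Gpd1, and -0.28 and -0.16 over the 13 arrays.

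By the probe set with the higher mean signal of each gene, Ckm followed Car3 more closely than the other members. Over 16 arrays its r was 0.963 with Car3 (1449434_at) and 0.589 with Gpd1 (1448249_at), and over the 13 arrays without those of low Ckm it was 0.889 and 0.529. With Adipoq it was -0.12 over 16 arrays and -0.45 over the 13, and with Fabp4 (1417023_a_at) -0.19 and -0.24. By the second probe sets this order did not hold over 16 arrays. There r was 0.731 with Car3 (1460256_at), 0.737 with Gpd1 (1416204_at) and -0.52 with Fabp4 (1451263_a_at). Over the 13 arrays these were 0.753, 0.513 and -0.18. The arrays share muscle mass, mice and processing, so these are descriptions with no test.

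**Figure D4:**
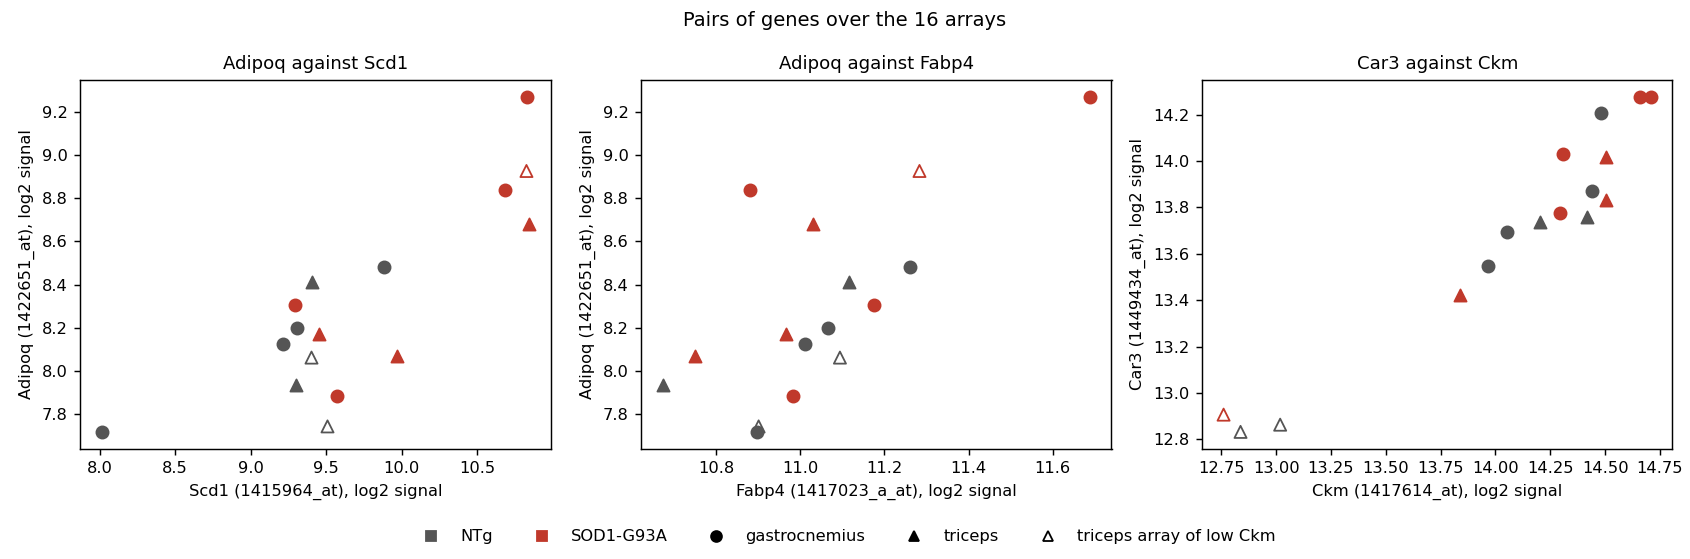
Log2 signals of pairs of genes in the 16 arrays, Adipoq against Scd1, Adipoq against Fabp4 and Car3 against Ckm, with circles for gastrocnemius, triangles for triceps, grey for NTg and red for SOD1-G93A. The 4 arrays of SOD1-G93A mice 1 and 2 form the upper right of the first panel, and in the third panel the 3 open triangles, the triceps arrays of low Ckm, lie at the lower left of a narrow band (r = 0.963).

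Over the 8 mice, 12 relations were computed within a muscle or between muscles, and none passed after Benjamini-Hochberg adjustment. Those with Car3 in triceps were not computed, because its 8 values fell into separate clusters, 12.83 to 12.91 and 13.42 to 14.02. In gastrocnemius, Adipoq and Fabp4 had r = 0.707 (exact permutation p = 0.0498, adjusted 0.149) and rho = 0.5 (exact p = 0.216, adjusted 0.585), and r was 0.960 without SOD1-G93A mice 1 and 2, the farthest from the median of Adipoq. In triceps they had r = 0.734 (exact permutation p = 0.0395, adjusted 0.149) and rho = 0.714 (exact p = 0.0576, adjusted 0.230), and r was 0.545 without the same mice.

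Car3 and Gpd1 in gastrocnemius had r = 0.770 (exact permutation p = 0.0239, adjusted 0.143) and rho = 0.810 (exact p = 0.0218, adjusted 0.221), and r was 0.866 without NTg mouse 1 and SOD1-G93A mouse 3. Between the muscles of a mouse, Gpd1 had r = 0.783 (exact permutation p = 0.0220, adjusted 0.143) and rho = 0.762 (exact p = 0.0368, adjusted 0.221), and r was 0.903 without NTg mice 2 and 4. Adipoq had r = 0.531 between the muscles (exact permutation p = 0.173, adjusted 0.416) and rho = 0.310 (exact p = 0.462, adjusted 0.585). That relation rested on SOD1-G93A mice 1 and 2, without which r was -0.76. Fabp4 had r = -0.07 between the muscles (exact permutation p = 0.864, adjusted 0.904) and rho = -0.36 (exact p = 0.389, adjusted 0.585).

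The genes whose values were most like those of Adipoq over the 16 arrays were Scd1 (r = 0.831), which encodes a fatty acid desaturase, Mgst1 (0.790), a microsomal glutathione transferase, Eif2s2 (0.768), a translation initiation subunit, Kmt5a (0.753), a histone methyltransferase, and Limd1 (0.733). The 4 arrays of SOD1-G93A mice 1 and 2 carried most of the likeness to Scd1. They had Scd1 at 10.83, 10.69, 10.85 and 10.83, while no other array was above 9.97. Over the 12 other arrays Adipoq had an r of 0.467 with Scd1, 0.653 with Mgst1 and 0.688 with Fabp4.

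Fabp4 was most like Tcta (r = 0.820), Snrpd3 (0.816), a splicing protein, Slc25a5 (0.804), the mitochondrial adenine nucleotide carrier, Ppp1r14b (0.752) and Anxa5 (0.739), an annexin. Car3 was most like Tnni2 (0.971), Tnnt3 (0.970), Myl1 (0.970), Acta1 (0.966) and Aldoa (0.965). These encode fast troponins, a fast myosin light chain, skeletal actin and a glycolytic aldolase. Gpd1 was most like Meg3 (0.770 and 0.759 by 2 probe sets), a noncoding RNA, Pde4dip (0.763), Kif1c (0.757), a kinesin, and Sirt2 (0.751), a deacetylase. All of these are for the probe set with the higher mean signal of each gene. The second Car3 probe set (1460256_at) was most like Igfbp7 (0.980), Selenow (0.943), Itm2b (0.937), Oaz2 (0.937) and Gstm1 (0.935). Those of Fabp4 (1451263_a_at) and Gpd1 (1416204_at) were most like Tmx1 (0.822) and Sqstm1 (0.947).

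No other gene of fat cells on the list examined was called between the genotypes. Of 30 further genes on a list of adipocyte identity, 10 were named in the table and 9 were tested. Over both muscles 4 of the 9 were above 0, as were 51.3% of all probe sets, with a median of -0.01 against 0.00 over all probe sets tested, and 0 were called. Without the 3 triceps arrays of low Ckm, 6 of the 9 were above 0 over both muscles, with a median of 0.02, and 8 of the 9 in triceps, with a median of 0.13, again with 0 called. Lpl, the lipase that frees fatty acids from lipoproteins, was at 0.06 and Plin4, a lipid droplet coat protein, at 0.00. Slc2a4, the insulin-responsive glucose transporter, was at -0.02, Cd36, a fatty acid transporter, at -0.05 and Cav1, caveolin 1, at -0.01, and all of these are also expressed in muscle or its vessels.

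The remaining tested genes of that list were Gpam (-0.02) and Dgat2 (0.07), which build triglycerides, Pnpla2 (0.04), which breaks them down, and Cebpb (-0.27), a transcription factor. Pck1, of glyceroneogenesis, had a mean signal of 5.19 and was not tested. The 20 other genes of the list, among them Plin1, Cfd, Lep, Retn, Cidec and Pparg, had no probe set named for them in the table, so they could not be read. The summed signal of the list ran from 12.96 to 13.18 in NTg and 12.99 to 13.08 in SOD1-G93A gastrocnemius, and from 12.69 to 12.99 in NTg and 12.63 to 12.98 in SOD1-G93A triceps. The brightest genes weigh most in this sum, Lpl (mean signal 11.28), Gpam (10.26) and Slc2a4 (10.21), so it is no measure of fat content.

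Between the muscles, 6 of the 9 had differences above 0, toward gastrocnemius, as had 49% of all probe sets, with a median of 0.16 against -0.00 over all probe sets. Lpl was called, at 0.69 (SE 0.10; limma's adjusted p = 0.000197), and Cd36 was at 0.57 (SE 0.17) and was not called (limma's adjusted p = 0.0671). Of the other fatty acid binding proteins, Fabp3, the heart and muscle form, was called higher in gastrocnemius at 0.91 (SE 0.17; limma's adjusted p = 0.00374), and Fabp5, the epidermal form, was at -0.13 (SE 0.20). Their genotype differences over both muscles were -0.14 (SE 0.17) and -0.17 (SE 0.21).

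Fasn, Scd1 and Thrsp, the genes of lipid synthesis kept apart from the 4 markers, had larger genotype differences than Adipoq, a contrast that was not tested. Over both muscles Fasn, the fatty acid synthase, was at 1.30 (SE 0.30), Scd1 at 0.93 (SE 0.29) and Thrsp, a regulator of lipogenesis, at 0.56 (SE 0.24), against 0.43 for Adipoq and 0.09 for Fabp4, with none called by limma (adjusted p = 0.997 for each). In NTg gastrocnemius Fasn had a mean of 5.81 (5.19 to 6.91), below the filter level of 6.75. The Fasn differences therefore include low signals. In the muscle comparison Fasn was at -0.94 (SE 0.29) and Thrsp at -0.60 (SE 0.23), both toward triceps, and Car3 at 0.54 toward gastrocnemius. Fasn, Scd1 and Thrsp are the members named of a list of 10 tested genes of lipid synthesis, of which 8 were above 0 over both muscles, with a median of 0.09. Adipoq had an r of 0.588 with Fasn and 0.614 with Thrsp over 16 arrays, and of 0.679 and 0.657 without the 3 triceps arrays of low Ckm. Over the 12 arrays without SOD1-G93A mice 1 and 2 these were 0.113 and -0.10.

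Adiponectin acts through Adipor1 and Adipor2, which were at 0.06 (SE 0.11) and -0.05 (SE 0.11) over both muscles. Of 5 tested genes of adiponectin reception and signalling 3 were above 0, with a median of 0.02, and limma called 0. Of 6 tested genes that handle glycerol phosphate beside Gpd1, 4 were above 0, with a median of 0.06, and 0 were called. Aldoa was at 0.20 (SE 0.24), in the same range as Car3 and Gpd1. Of the other carbonic anhydrases only Car14 was tested, at -0.19.

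Genes of the fast fibre had differences of the same sign as most of those of Car3 and Gpd1. The genotype differences of Adipoq and Fabp4 over both muscles had that sign too. Over both muscles 13 of 13 tested fast fibre genes were above 0 in SOD1-G93A, with a median of 0.21 and 0 called. Of all probe sets 51.3% were above 0 and 0% were called. Gastrocnemius minus triceps had 13 of 13 above 0, with a median of 0.53 and 1 called, where 49% of all probe sets were above 0 and 3.69% were called. Under quantile normalization 7 of 13 fast fibre genes were above 0 in each comparison, with medians of 0.00 and 0.02. Without the 3 triceps arrays of low Ckm the medians were 0.10 and 0.06. The part of fast fibre content in the Car3 and Gpd1 values was not tested.

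Endothelial genes, of a cell type that also makes Fabp4, had a summed signal of 9.64 to 9.81 in NTg and 9.46 to 10.04 in SOD1-G93A gastrocnemius, from 6 of 17 listed genes. In triceps it was 9.35 to 9.77 in NTg and 9.46 to 10.02 in SOD1-G93A. Macrophage and immune genes, 9 of 20 listed, were at 10.44 to 10.99 in NTg and 9.94 to 10.73 in SOD1-G93A gastrocnemius, and at 10.33 to 11.16 in NTg and 10.61 to 10.86 in SOD1-G93A triceps. These ranges overlapped between the genotypes, and their part in the Fabp4 values was not tested.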

How the data were processed

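Total RNA of both muscles was hybridised to Affymetrix mouse arrays, per the labels' protocols. The deposited table holds log2 signals made by the authors. MAS5 is the only tool in the submitters' processing notes, and the sources used here state no scaling, log base or rule for the 7729 probe sets. Base 2 was read from the value range.

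Probe sets with a mean above the 40th percentile (6.75) were tested, 4637 in all, with limma 3.58.1 in R 4.3.3: 4 group means, lmFit, eBayes with an intensity trend, and a call at a Benjamini-Hochberg adjusted p under 0.05. The comparison over both muscles had the mouse as a random block (consensus correlation 0.185). Replicates are separate mice, and both muscles of a mouse were taken to carry 1 number. Same-numbered muscles within a genotype correlated at 0.136 to 0.388 in deviations from group means. Among triceps arrays of its genotype, each gastrocnemius array correlated best with the same-numbered one (8 of 8). Same-numbered triceps arrays of different genotypes correlated at 0.03 to 0.37. A factor other than the mouse that is tied to the number would give the same, so these values do not settle the pairing. Exact permutation tests, two-sided, used scipy 1.17.1. The fit was tested on simulated data.

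Symbols came from the platform annotation (1 symbol for 7053 probe sets, several for 330, none for 346). A gene on a list is read by its brightest probe set, and a list's summed signal is the log2 of its genes' summed linear signals. Named are all members, the 5 probe sets most like each (Pearson's r), all adipocyte identity genes, the 2 brightest genes of other lists, Fasn, Scd1, Thrsp and Ckm; of these, part is printed. Members and lists were chosen with earlier results of these data known. Alternatives changed the filter, normalization, trend, blocks and arrays used.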

Additional observations from a re-analysis of the deposited data

How the results depend on the processing

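Of 721 fits of the members in the genotype comparisons and their difference between muscles, 0 gave a call, and of 189 in the muscle comparison 7 did. These are refits of the same 7 probe sets and not separate tests. In the main fits 0% of all probe sets were called in the genotype comparisons and 3.69% (171 of 4637) between the muscles. The number of arrays limits the precision. The cause of each change below was not tested unless fewer arrays or a block made it.

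With a replicate block, the Car3 muscle differences of 0.54 (1449434_at) and 0.88 (1460256_at) were called with the number as a fixed term, the mouse as a fixed term, and the set of numbers (1 and 2, 3 and 4) as a fixed term, the last 2 chosen after seeing the data. Probe sets called between the muscles went from 171 to 408, 318 and 436 in these, to 331 with the mouse as a random block, to 103 without 3 triceps arrays and to 99 to 272 with single arrays left out. The block changed no other call of a member. Across genotypes, same-numbered gastrocnemius arrays correlated at 0.00 to 0.22. Same-numbered triceps arrays correlated at 0.03 for number 1 and at 0.32, 0.37 and 0.34 for numbers 2, 3 and 4. These last 3 lie within the 0.136 to 0.388 found between same-numbered muscles within a genotype. Whether the numbers mark something shared across genotypes was not tested, and in the main fits they were taken as names only.

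Under quantile normalization Gpd1 (1448249_at) turned to -0.017 between muscles and to -0.020 in the difference of genotype effects. Without the 3 triceps arrays of low Ckm, Gpd1 (1448249_at) turned to -0.042 for genotype in triceps and -0.071 between muscles, Car3 (1460256_at) to -0.30 for genotype in triceps and 0.62 in the difference of effects, and Fabp4 (1451263_a_at) to 0.16 between muscles. Without the 2 mice farthest from the median, r turned to 0.166 for Fabp4 with Car3 and 0.144 for Fabp4 with Gpd1 in gastrocnemius, and to -0.76 for Adipoq between muscles. Of the 5 most like genes, 2 for Adipoq, 3 for Car3 and 2 for Gpd1 were shared when deviations from group means were used.

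With single arrays left out, signs also turned. The genotype difference ran from -0.045 to 0.22 for Fabp4 (1417023_a_at) in gastrocnemius, and in triceps from -0.030 to 0.15 for it, -0.20 to 0.15 for Fabp4 (1451263_a_at) and -0.062 to 0.90 for Car3 (1460256_at). The difference of effects ran from -0.11 to 0.16 for Fabp4 (1417023_a_at), -0.21 to 0.25 for Adipoq, -0.094 to 0.083 for Gpd1 (1448249_at), -0.20 to 0.17 for Car3 (1449434_at) and -0.58 to 0.38 for Car3 (1460256_at). Between muscles it ran from -0.013 to 0.22 for Adipoq, -0.0095 to 0.079 for Gpd1 (1448249_at) and -0.16 to 0.035 for Fabp4 (1451263_a_at). The muscle difference of Gpd1 (1416204_at) ran from 0.35 to 0.75 and kept its sign.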
